A study of Mus musculus with 10 samples.

Results

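The 45 genes described here are immediate early and rapid response genes, taken by symbol from a count table of 55401 genes, in which all 45 were found. They were measured in 10 RNA-seq libraries, 5 from sorted cells of pancreatic tumours and 5 from cells sorted in the same way from pancreas. Both groups came from C57BL/6 mice of a tamoxifen-inducible KPC model of pancreatic cancer, in which a recombinase that tamoxifen activates switches on the tumour-driving alleles. Tumour donors received tamoxifen (20 mg/kg by intraperitoneal injection on 5 consecutive days) at 6 weeks of age, pancreas donors received the solution without tamoxifen, and tissue was taken at 4 months. The pancreas donors therefore carried the same inducible alleles, uninduced. The promoter driving the recombinase is not given in the sources used here. Cells were labelled with an antibody to the nerve growth factor receptor, sorted and called Schwann cells, and nothing says whether each library came from a separate animal, so p-values below refer to the spread among these libraries, part or all of which may be technical. Tumours were digested with a commercial tumour dissociation kit and pancreases with hyaluronidase and collagenase, in all 5 libraries of each group. Dissociation itself is known to induce many of these genes, and tissue and digestion cannot be told apart in this design. The tumour columns carry a code (COCUL) that the labels do not explain.

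Immediate early genes are transcribed within minutes of a growth factor, calcium or stress signal without new protein synthesis, because kinases of the ERK, p38 and JNK pathways act on factors already bound at their promoters. Many encode transcription factors, such as the Fos and Jun proteins that pair to form AP-1. Others encode phosphatases and RNA decay factors that end the response, and most of the mRNAs are short-lived. In Schwann cells, Jun is known for driving the repair state after nerve injury and Egr1 and Egr3 for their part in the control of differentiation.

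Library depth was 58242278 to 84194616 counts in tumour and 60622336 to 89816499 in pancreas. Levels are given as CPM, counts scaled to library size with TMM factors, and fold changes as log2 values (tumour minus pancreas) with their standard error from edgeR's quasi-likelihood test, whose p-values were adjusted over 17548 tested genes and called at 0.05. Tumour libraries correlated with each other at a Spearman coefficient of 0.992 to 0.994 across genes, and pancreas libraries at 0.985 to 0.993, and pancreas libraries 3 and 4 stood apart from pancreas libraries 1, 2 and 5 on the second principal component (6.28% of the variance). The defining Schwann cell markers were close to 0: Sox10 had 0 counts in every tumour library and 0, 0, 3, 0 and 9 counts in pancreas, Foxd3 had 0 counts in all 10, and Ngfr, the antigen of the sort, had 0 to 14 counts in tumour and 4 to 22 in pancreas. The 14 listed Schwann markers summed to 468 to 508 CPM in tumour and 456 to 592 CPM in pancreas, of which Cryab, a small heat shock protein made by many cells, gave 73.7%. The cells are therefore called by their tissue below. Fibroblast markers summed to 84.1 to 104 CPM in tumour and 500 to 598 CPM in pancreas (1 of 8 tested higher, 6 lower). Dcn, Lum and Dpt were at 0 in tumour but also low in pancreas, with means of 0.737, 0.0137 and 0.0275 CPM. Thy1 gave 59.6% of the sum, and the gene that was higher in tumour was Pdgfra (mean 45.1 CPM, against 12.4 CPM in pancreas). Pericyte and smooth muscle markers summed to 400 to 431 CPM in tumour and 646 to 822 CPM in pancreas (3 of 8 higher, 5 lower). Cspg4 gave 36.3% of that sum but was higher in tumour (mean 248 CPM, against 171 CPM in pancreas). Also higher in tumour, at low levels, were Des (3.04 against 0.257 CPM) and Myh11 (1.83 against 0.486 CPM). Lower in tumour were Acta2 (1.74 CPM, against 266 CPM in pancreas), Tagln (0.541 against 41.8 CPM) and Pdgfrb (164 against 253 CPM), among others. Endothelial markers summed to 198 to 209 CPM in tumour and 340 to 390 CPM in pancreas (0 of 4 tested higher, 2 lower). Cdh5 gave 91.9% of that sum, with Emcn and Cldn5 at 0 in tumour and close to 0 in pancreas (means of 0.0385 and 0.00771 CPM). Ductal and neoplastic epithelial markers summed to 459 to 551 CPM in tumour and 675 to 788 CPM in pancreas (0 of 5 tested higher, 4 lower). Msln gave 88.3% of that sum, with Krt8 at 0 in tumour and close to 0 in pancreas (mean 0.0517 CPM). Macrophage markers summed to 15.1 to 18.8 CPM in tumour and 4.33 to 14.8 CPM in pancreas, with Adgre1, C1qa and C1qb at 0 in both, and T cell, B cell, neutrophil, mast cell and acinar markers to at most 4.09 CPM in any library. The part of these other cell types in the values below was not tested, and in such bulk samples fewer cells of a type and less RNA per cell cannot be told apart.

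Most of the immediate early and rapid response genes were lower in tumour than in pancreas. Of the 44 that passed the filter on low counts, 32 fell, 5 rose and 7 did not pass the test, where 33.4% of all tested genes fell and 32.4% rose. In shares, 72.7% of the tested members fell, 11.4% rose and 84.1% passed in either direction, where 65.8% of all tested genes passed. The median log2 fold change of the members was -0.72, against 0.002 over all tested genes, with a range of -4.57 for Arc to 1.10 for Dusp10. At least 2-fold decreases were called for 17 members, where 10.3% of all tested genes had one, and Dusp10 alone rose at least 2-fold, where 12.7% of all tested genes did. The CPM of the groups did not overlap for 31 of the 44 members and for 54.6% of all tested genes. Of those 31, 28 were lower in tumour, where 27.4% of all tested genes were, and 3 were higher, where 27.2% of all tested genes were. Egr4, an early growth response factor, was the member not tested, with counts of 0, 16, 0, 0 and 0 in tumour and 4, 4, 0, 0 and 0 in pancreas.

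Summed over all 45 genes, the members took 0.403% to 0.419% of all counts in tumour libraries and 0.598% to 0.640% in pancreas libraries. The summed level was 3898 to 4070 CPM in tumour and 6205 to 6606 CPM in pancreas, with no overlap. Per kilobase of exon, the members with the highest level in tumour were Rhob, a small GTPase of endosomes and the actin cytoskeleton (199 ± 8.32 CPM per kb, SD, n = 5), and Cebpb (198 ± 13), whose ranges overlapped. Zfp36l2 (107 ± 5.08 CPM per kb), Klf9 (78.8 ± 2.31) and Sgk1 (62.0 ± 5.93) followed, each below the range of the gene before it. In pancreas the order was Cebpb (231 ± 37.2 CPM per kb), Rhob (183 ± 8.21), Sgk1 (179 ± 21.9), Junb (115 ± 17.2), Zfp36l2 (111 ± 5.08) and Dusp1 (111 ± 10.7). There the ranges of neighbours overlapped except from Cebpb to Rhob, by a narrow margin, and from Sgk1 to Junb. Dusp1 stood at 17.7 ± 0.724 CPM per kb in tumour.

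**Figure D1:**
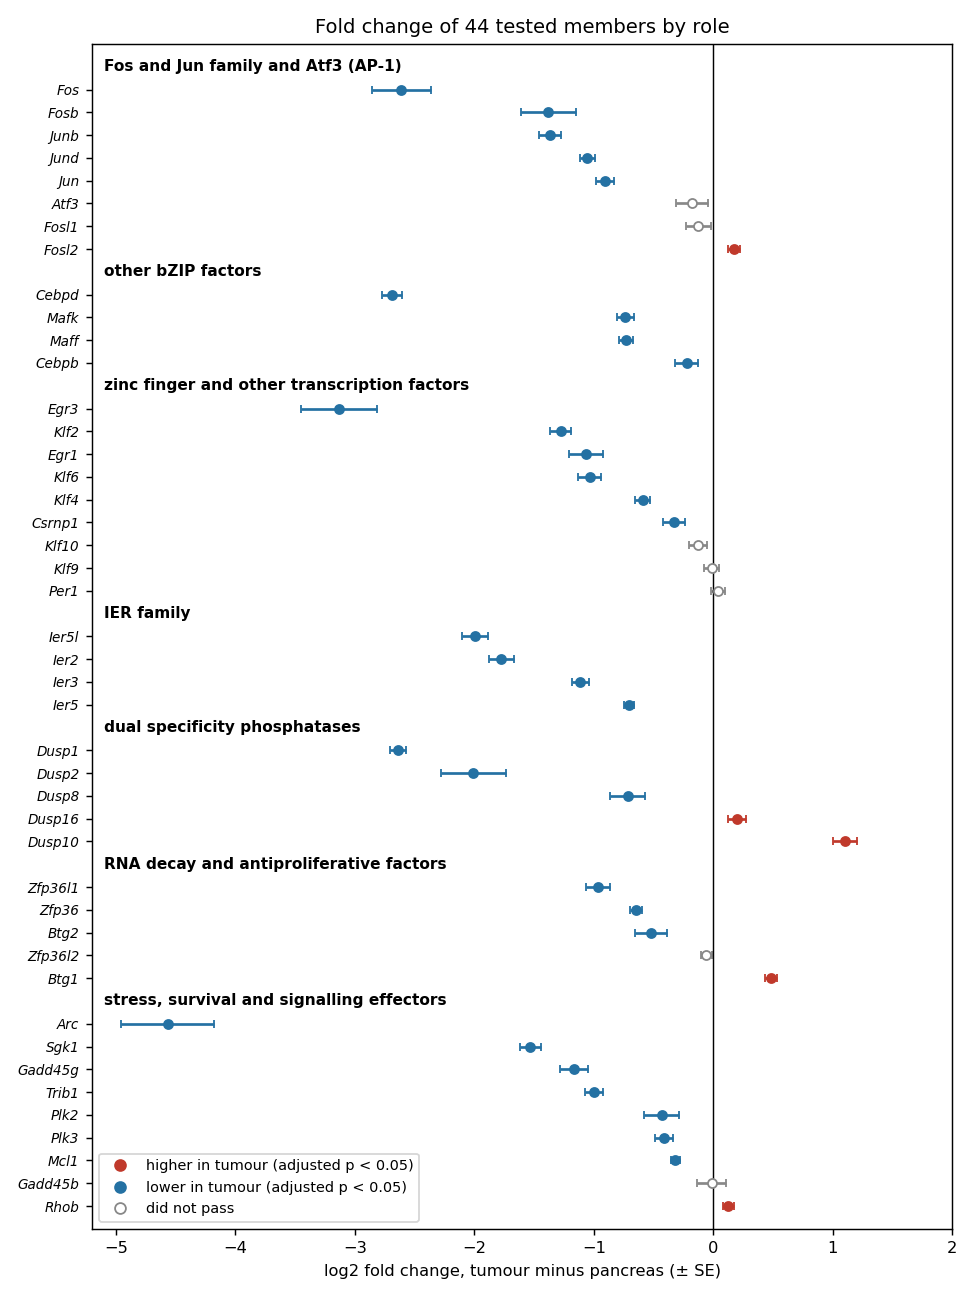
Log2 fold change (tumour minus pancreas, horizontal axis) of the 44 tested members, grouped by role, with bars of 1 standard error. Points left of 0 were lower in tumour: 32 of the 44 passed the test on that side and 5 on the other, with Arc at -4.57 and Dusp10 at 1.10 as the ends.

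Within the AP-1 family, which binds DNA as Fos and Jun pairs, 5 of 8 members fell, 1 rose and 2 did not pass the test. Fos, the founding partner of Jun (chr12:85473890-85477273, mm10), had 18.2, 14.4, 16.9, 25.6 and 19.7 CPM in tumour, against 107, 103, 152, 153 and 64.7 CPM in pancreas. Every tumour library lay below every pancreas library, and pancreas libraries 3 and 4 were the highest of all. The fall was -2.61 ± 0.25 on the log2 scale, or 6.11-fold (edgeR adjusted p = 4.1e-06). Fosb, a close relative of Fos, was low in both groups, with 2.30 ± 0.811 CPM in tumour and 6.01 ± 0.892 CPM in pancreas (SD, n = 5 each), and also fell (-1.38 ± 0.23, edgeR adjusted p = 0.00012). The Fos-related antigens, which lack the strong activation domain of Fos, changed little. Fosl2 had 135, 140, 140, 139 and 152 CPM in tumour and 129, 116, 135, 129 and 117 CPM in pancreas, a narrow but complete separation of the groups, and rose by 0.17 ± 0.05 (edgeR adjusted p = 0.0092). Fosl1 averaged 48.7 ± 3.77 CPM in tumour and 53.2 ± 9.49 CPM in pancreas and did not pass the test (-0.13 ± 0.11, edgeR adjusted p = 0.31).

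Jun, Junb and Jund all fell without overlap. Jun (chr4:95049034-95052222, mm10) had 49.9, 45.2, 46.6, 40.9 and 48.0 CPM in tumour, against 80.0, 90.1, 79.5, 82.9 and 100 CPM in pancreas. The groups were far apart relative to their spread, and the change was -0.91 ± 0.07 (edgeR adjusted p = 1.2e-07). Junb, a Jun relative with weaker activation of many targets, had 103, 106, 104, 89.8 and 110 CPM in tumour and 261, 297, 218, 235 and 311 CPM in pancreas, with a fall of -1.37 ± 0.09 or 2.58-fold (edgeR adjusted p = 4.3e-08). Jund, the most constantly expressed Jun gene in many tissues, averaged 76.0 ± 5.85 CPM in tumour and 158 ± 11.1 CPM in pancreas (-1.06 ± 0.06, edgeR adjusted p = 7.8e-09). Per kilobase of exon, Junb and Jund were close in tumour, at 44.6 ± 3.30 and 45.6 ± 3.51 CPM per kb, and Jun was at 14.5 ± 1.06. Atf3, a stress-induced factor that pairs with Jun and is known in injured nerve, had 10.5 to 13.4 CPM in tumour and 10.4 to 16.2 CPM in pancreas, overlapping ranges that did not pass the test (-0.18 ± 0.14, edgeR adjusted p = 0.26). Summed over the family, the level was 419 to 469 CPM in tumour and 796 to 847 CPM in pancreas.

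Some of these genes share exon bases with a neighbour on the other strand, and the library kit named in the labels does not mark strand, so reads of the pair cannot be told apart. How reads in shared bases were counted is not stated. Levels per kilobase, such as those of Jund and Cebpb above, divide by all exon bases, shared ones included. The overlap covered 57.2% of the exon bases of Fosl1, shared with Ccdc85b, which itself had 122 to 142 CPM in tumour and 125 to 192 CPM in pancreas. It covered 52.6% of Jund, shared with Gm11175, a gene with at most 0.143 CPM in tumour and 0.398 CPM in pancreas. For Cebpb it was 20.7%, shared with Tmem189 (46.6 to 49.6 CPM in tumour, 68.9 to 78.5 CPM in pancreas), and for Cebpd 15%, shared with Spidr (62.1 to 66.6 CPM in tumour, 29.5 to 37.4 CPM in pancreas). Spidr was higher in tumour while Cebpd was lower there. For Zfp36l1 it was 55.9%, shared with Gm26669, which was not analysed here.

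**Figure D2:**
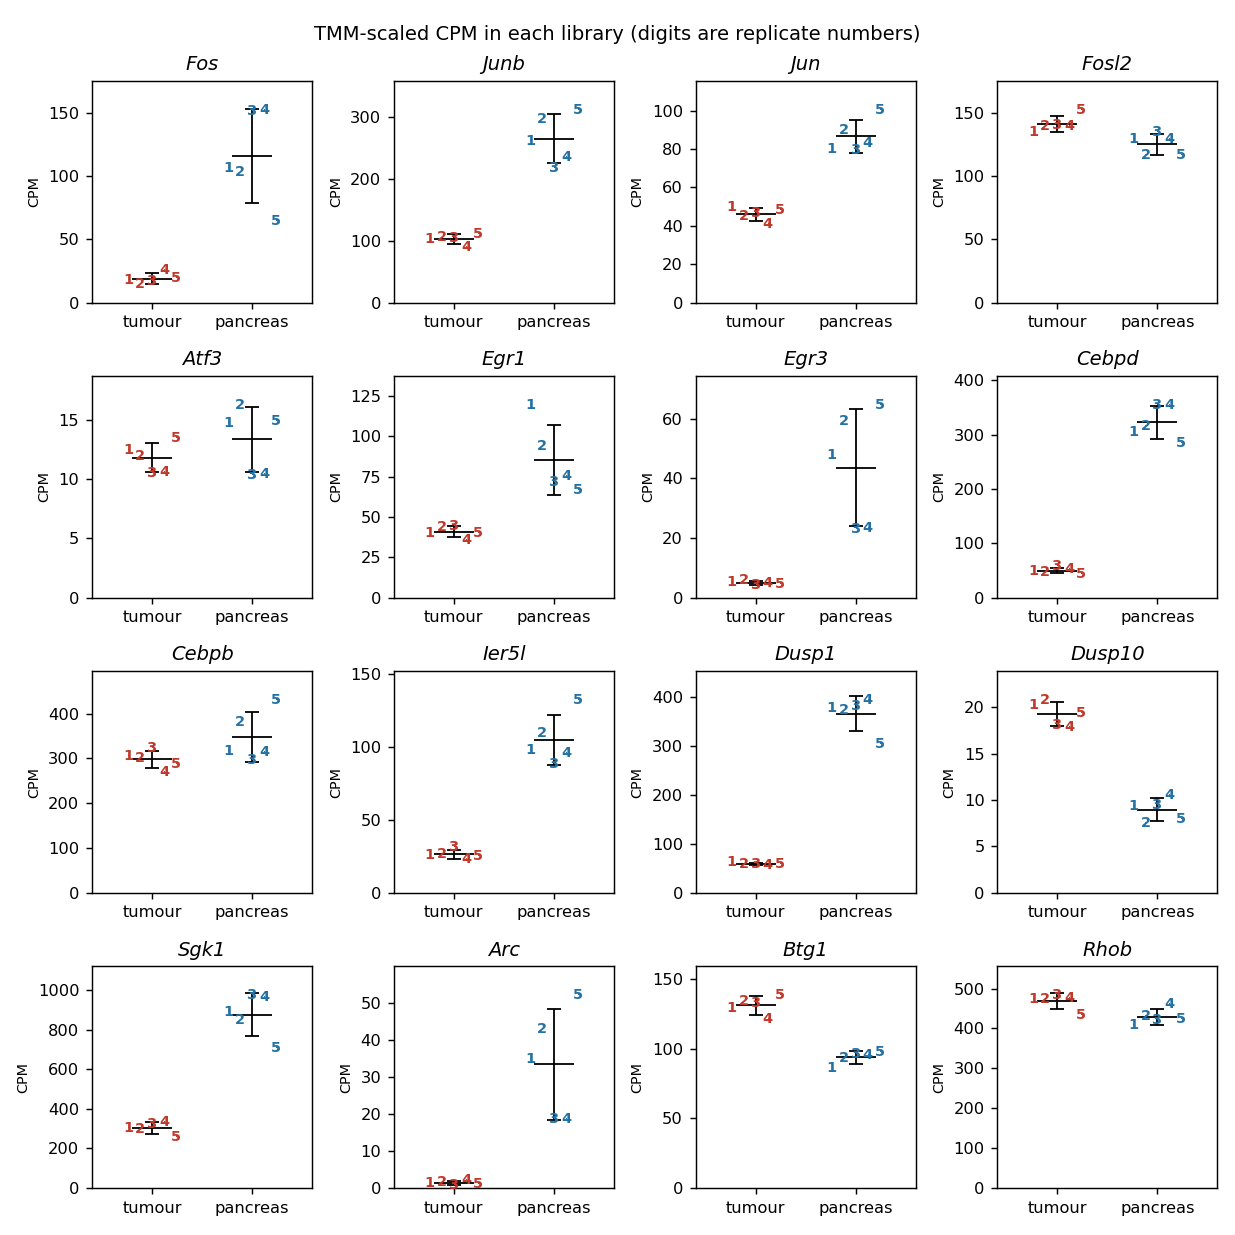
Level (CPM, linear axes that start at 0) of 16 members, tumour left of pancreas, with each library drawn as its replicate number, a line at the group mean and whiskers of 1 SD. Fos, Cebpd, Egr3, Dusp1 and Arc show groups that do not overlap with all tumour points below, Dusp10 the opposite order, and Egr3 and Arc a wider spread in pancreas than in tumour.

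The 4 other bZIP factors all fell, but to very different extents. Cebpd (chr16:15887286-15891031, mm10), a C/EBP factor induced by cytokines and glucocorticoids, had 48.8, 46.6, 58.1, 52.1 and 44.2 CPM in tumour, against 304, 315, 354, 354 and 285 CPM in pancreas. No library of one group came near the other, and the fall was -2.69 ± 0.08 or 6.45-fold (edgeR adjusted p = 5e-11). Its relative Cebpb, a C/EBP factor of inflammatory and acute phase responses, had 306, 302, 322, 271 and 288 CPM in tumour and 316, 380, 297, 315 and 430 CPM in pancreas, and its overlapping values passed only narrowly (-0.22 ± 0.09, edgeR adjusted p = 0.0496). That call ended when any one of tumour libraries 1, 2, 4 and 5 or pancreas libraries 2 and 5 was left out, with log2 fold changes of -0.28 to -0.14 over all 10 such fits. The small Maf proteins, which lack an activation domain and pair with other bZIP factors, fell alike: Maff averaged 49.9 ± 2.35 CPM in tumour and 82.9 ± 6.02 CPM in pancreas (-0.73 ± 0.06, edgeR adjusted p = 9.4e-08). Mafk averaged 57.7 ± 2.38 CPM in tumour and 96.3 ± 11.2 CPM in pancreas (-0.74 ± 0.07, edgeR adjusted p = 7.3e-07).

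Among the zinc finger and other transcription factors, 6 of the 9 tested fell, none rose and 3 (Klf9, Klf10 and Per1) did not pass the test. Egr3 (chr14:70077203-70082614, mm10), an early growth response factor, had 5.12, 5.91, 4.34, 5.01 and 4.43 CPM in tumour, against 47.8, 59.1, 23.1, 23.3 and 64.6 CPM in pancreas. Tumour libraries were tightly grouped, and pancreas libraries 3 and 4 had less than 1, 2 and 5 but stayed above every tumour library. The fall was -3.13 ± 0.32 or 8.77-fold (edgeR adjusted p = 6.4e-06). Egr1, the best known of its family, had 39.8, 43.7, 44.3, 36.0 and 39.9 CPM in tumour and 119, 93.8, 71.7, 75.1 and 66.9 CPM in pancreas, again without overlap, and fell by a smaller amount (-1.07 ± 0.14, edgeR adjusted p = 4e-05).

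The Krüppel-like factors divided. Klf2, known for its response to shear stress in endothelium, averaged 17.9 ± 1.17 CPM in tumour and 43.3 ± 5.40 CPM in pancreas (-1.28 ± 0.09, edgeR adjusted p = 2.4e-08). Of the endothelial markers, Cdh5 and Kdr were lower in tumour and Pecam1 and Vwf did not pass, and their part in the Klf2 value was not tested. Klf6, a widely expressed injury-response factor, averaged 160 ± 5.51 CPM in tumour and 328 ± 53.7 CPM in pancreas (-1.04 ± 0.10, edgeR adjusted p = 7.3e-07), and Klf4, a factor of epithelial differentiation and pluripotency, 115 ± 10.5 CPM in tumour and 173 ± 7.63 CPM in pancreas (-0.59 ± 0.06, edgeR adjusted p = 1.6e-06). Klf9, a glucocorticoid and thyroid hormone target, had 388, 389, 372, 385 and 364 CPM in tumour and 357, 399, 376, 339 and 445 CPM in pancreas. Its ranges overlapped fully, with a difference of -0.01 ± 0.06 (edgeR adjusted p = 0.85). Klf10, a TGF-beta induced factor (-0.13 ± 0.08), and Per1, the clock gene that also answers acute stimuli (0.04 ± 0.06), likewise did not pass (edgeR adjusted p = 0.15 for Klf10 and 0.61 for Per1), although Klf10 fell without pancreas library 4 (-0.18, edgeR adjusted p = 0.0429). Csrnp1, a nuclear protein first described as induced by axin, fell (-0.33 ± 0.09, edgeR adjusted p = 0.0058), with 40.9, 45.7, 46.1, 45 and 46.1 CPM in tumour and 63.7, 58, 56.4, 60.4 and 42.4 CPM in pancreas. Only pancreas library 5 lay within the tumour range, and with an offset for gene span, length and GC content, described further on, the value was -0.033 (edgeR adjusted p = 0.789).

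All 4 members of the IER family, small early response proteins, fell without overlap. Ier5l (IER5-like) had 25.9, 26.3, 31.1, 23.0 and 25.3 CPM in tumour, against 97.7, 109, 88.2, 96.0 and 132 CPM in pancreas, a fall of -1.99 ± 0.11 or 3.98-fold (edgeR adjusted p = 6.4e-09). Ier2, a nuclear protein, fell next most, at 18.8 ± 1.57 CPM in tumour and 64.6 ± 10.1 CPM in pancreas (-1.78 ± 0.10, edgeR adjusted p = 7e-09). Ier3, which modulates survival and ERK signalling, averaged 41.8 ± 2.63 CPM in tumour and 90.3 ± 9.63 CPM in pancreas (-1.11 ± 0.07, edgeR adjusted p = 2e-08). Ier5, a cofactor of the heat shock factor HSF1, had 72.3, 72.1, 77.4, 71.4 and 69.3 CPM in tumour and 119, 122, 112, 119 and 118 CPM in pancreas, the smallest change of the family (-0.70 ± 0.04, edgeR adjusted p = 9.4e-09).

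The dual specificity phosphatases, which remove phosphate from MAP kinases, moved in both directions: 3 fell and 2 rose. Dusp1 (annotated at chr17:26505590-26562128, mm10), the early induced phosphatase of p38, JNK and ERK, had 62.5, 59.0, 58.1, 55.9 and 58.1 CPM in tumour, against 378, 373, 381, 394 and 304 CPM in pancreas. The lowest pancreas library still held several times the highest tumour value, and the change was -2.64 ± 0.07 or 6.23-fold (edgeR adjusted p = 1.2e-11). Dusp10 (chr1:184013302-184075636, mm10), a phosphatase of JNK and p38, ran the other way, with 20.2, 20.8, 18.1, 17.9 and 19.4 CPM in tumour and 9.40, 7.54, 9.42, 10.6 and 7.98 CPM in pancreas. Its groups did not overlap either, and the rise was 1.10 ± 0.10 or 2.15-fold (edgeR adjusted p = 3.7e-07). Dusp2, a nuclear phosphatase best known in immune cells, had 8.29 to 11.4 CPM in tumour and 42.5, 54.9, 22.6, 22.7 and 53.5 CPM in pancreas (-2.01 ± 0.27, edgeR adjusted p = 5.2e-05), with libraries 3 and 4 again the lowest in pancreas. Dusp8, a phosphatase of JNK and p38, averaged 10.7 ± 0.744 CPM in tumour and 17.6 ± 4.29 CPM in pancreas (-0.72 ± 0.14, edgeR adjusted p = 0.00063). Dusp16, a JNK phosphatase, had 51.0 to 64.5 CPM in tumour and 44.9 to 55.6 CPM in pancreas, ranges that overlapped, and its rise of 0.20 ± 0.08 (edgeR adjusted p = 0.033) ended when any of 5 libraries was left out (tumour 2 or 5, or pancreas 2, 4 or 5; 0.16 to 0.24 over the 10 fits).

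Promoter sequence was read from RefSeq for 36 members (47 windows of 250 bases before to 50 after a gene's start, GRCm38.p6) and searched on both strands for 4 motifs: the cAMP response element (CRE, TGACGTCA), the AP-1 site (TGANTCA), the EGR site (GCGNGGGCG) and the CArG box of the serum response factor. The full CRE was in 5 member windows (10.6%), of Btg2, Dusp1, Dusp8, Maff and Plk2, and in 1.79% of all 32851 windows. EGR sites were in 11 member windows (23.4%) and 5.55% of all, AP-1 sites in 3 (6.38%) and 7.81% of all, and a CArG box in 1, of Zfp36 (2.13%), and 1.63% of all. A match is a description of letters, not a binding site. Shown are the 250 bases before the start of Fos and Jun, the founding AP-1 pair, and of Dusp1 and Dusp16, the called members with the lowest and the highest fold change among those whose window holds a motif, 5′ to 3′ on the gene's strand, with a motif found in capitals (the CRE of Dusp1 begins at -143 and the EGR site of Dusp16, on the reverse strand, at -138, counted back from the base before the start). The intervals are chr12:85473640-85473889 (plus strand) for Fos, chr4:95052223-95052472 (minus) for Jun, chr17:26508473-26508722 (minus) for Dusp1 and chr6:134792629-134792878 (minus) for Dusp16. In the windows of Fos and Jun none of the 4 motifs was found in these exact letters. Sequence further upstream was not searched, so a motif outside the windows would be missed, also in the shares above. Members other than the 36 had no window.
Fos: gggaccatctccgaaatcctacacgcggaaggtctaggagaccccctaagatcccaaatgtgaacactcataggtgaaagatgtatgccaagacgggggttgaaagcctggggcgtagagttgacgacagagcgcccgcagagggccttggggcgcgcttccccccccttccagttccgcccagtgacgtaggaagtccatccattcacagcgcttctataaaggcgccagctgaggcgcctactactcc
Jun: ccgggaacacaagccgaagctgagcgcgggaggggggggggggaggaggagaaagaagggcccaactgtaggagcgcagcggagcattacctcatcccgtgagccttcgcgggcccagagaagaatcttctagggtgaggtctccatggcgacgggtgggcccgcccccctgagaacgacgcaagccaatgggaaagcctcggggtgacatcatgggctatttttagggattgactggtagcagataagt
Dusp1: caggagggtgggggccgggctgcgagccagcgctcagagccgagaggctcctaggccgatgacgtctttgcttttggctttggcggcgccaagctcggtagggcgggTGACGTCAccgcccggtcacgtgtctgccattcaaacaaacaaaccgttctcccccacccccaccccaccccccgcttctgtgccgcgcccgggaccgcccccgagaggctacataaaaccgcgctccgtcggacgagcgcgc
Dusp16: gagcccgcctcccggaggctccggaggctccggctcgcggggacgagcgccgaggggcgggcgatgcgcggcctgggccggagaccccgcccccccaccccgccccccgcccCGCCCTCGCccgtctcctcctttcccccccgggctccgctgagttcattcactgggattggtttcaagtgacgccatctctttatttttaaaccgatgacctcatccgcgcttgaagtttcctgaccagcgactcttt

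The RNA decay and antiproliferative factors divided, with 3 lower, 1 higher and 1 that did not pass the test. Btg1, which recruits deadenylases and restrains the cell cycle, had 129, 134, 133, 121 and 138 CPM in tumour, against 86.2, 93.6, 96.2, 95.2 and 98.0 CPM in pancreas. All tumour values lay above all pancreas values, a rise of 0.48 ± 0.05 (edgeR adjusted p = 1.1e-06). Its p53-induced relative Btg2 fell, at 46.7 to 56.9 CPM in tumour and 54.2 to 90.0 CPM in pancreas, ranges that met (-0.52 ± 0.13, edgeR adjusted p = 0.0045). Zfp36 (tristetraprolin), which binds AU-rich elements and speeds decay of cytokine and early gene mRNAs, averaged 44.4 ± 1.26 CPM in tumour and 69.6 ± 4.32 CPM in pancreas (-0.65 ± 0.05, edgeR adjusted p = 1.1e-07). Its paralog Zfp36l1 had 50.8, 48.9, 51.3, 55.3 and 50.2 CPM in tumour and 87.7, 112, 85.6, 88.3 and 128 CPM in pancreas, without overlap (-0.97 ± 0.10, edgeR adjusted p = 2.9e-06). Zfp36l2, another paralog, had 378, 400, 389, 369 and 353 CPM in tumour and 404, 385, 397, 413 and 367 CPM in pancreas, overlapping ranges (-0.06 ± 0.05, edgeR adjusted p = 0.30).

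Of the 9 stress, survival and signalling effectors, 7 fell, 1 rose and 1 did not pass the test. Arc (chr15:74669083-74672570, mm10), a cytoskeletal protein known from synaptic plasticity and strongly induced by activity, had the largest fold change of all members. It had 1.44, 1.66, 0.844, 2.09 and 0.940 CPM in tumour, against 34.7, 42.9, 18.5, 18.5 and 52.0 CPM in pancreas. Every tumour library lay far below every pancreas library, and pancreas libraries 3 and 4 were the lowest of their group, and the fall was -4.57 ± 0.39 or 23.7-fold (edgeR adjusted p = 1.6e-06). Sgk1, a kinase induced by serum and glucocorticoids that regulates ion transport and survival, had 306, 301, 322, 333 and 257 CPM in tumour, against 888, 851, 975, 965 and 710 CPM in pancreas. Library 5 was the lowest in each group, and the groups were far apart (-1.53 ± 0.09 or 2.89-fold, edgeR adjusted p = 8.6e-09).

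Gadd45g and Gadd45b, stress sensors that act on p38 and JNK signalling, parted. Gadd45g averaged 29.2 ± 2.28 CPM in tumour and 65.6 ± 13.1 CPM in pancreas (-1.16 ± 0.12, edgeR adjusted p = 1.8e-06), while Gadd45b had 56.9 to 64.7 CPM in tumour, inside a pancreas range of 48.2 to 76.0 CPM (-0.01 ± 0.12, edgeR adjusted p = 0.93). In pancreas, Gadd45b was 73.5 and 76.0 CPM in libraries 3 and 4 and 48.2 to 53.5 CPM in the other 3, so the group mean lay between 2 sets of values. Trib1, a pseudokinase that directs C/EBP factors to degradation, averaged 20.2 ± 0.892 CPM in tumour and 40.5 ± 4.22 CPM in pancreas (-1.0 ± 0.07, edgeR adjusted p = 5.9e-08). Mcl1, a short-lived survival protein of the BCL2 family, averaged 180 ± 3.70 CPM in tumour and 224 ± 6.96 CPM in pancreas (-0.32 ± 0.04, edgeR adjusted p = 5.1e-06). Polo-like kinases with roles in stress responses fell modestly: Plk3 averaged 33.5 ± 3.48 CPM in tumour and 44.5 ± 2.20 CPM in pancreas (-0.41 ± 0.07, edgeR adjusted p = 0.00018). Plk2 averaged 73.3 ± 6.27 CPM in tumour and 98.9 ± 24.1 CPM in pancreas with overlap (-0.43 ± 0.15, edgeR adjusted p = 0.021), a call that ended without tumour library 4 or without pancreas libraries 3 and 4. Rhob was the member that rose, with 475, 474, 483, 476 and 434 CPM in tumour and 408, 430, 422, 460 and 424 CPM in pancreas. Its ranges overlapped (0.13 ± 0.05, edgeR adjusted p = 0.024), and its call ended without any one of tumour libraries 1 to 4 or pancreas library 1.

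Because members of one family can be set against each other within a library, 14 pairs of relatives were compared as log2 ratios of (CPM + 0.5), with an exact two-sided permutation test over the 10 libraries (252 assignments, smallest possible p = 0.00794, which is 0.0123 after adjustment over the 14 pairs). The ratio differed in 9 pairs, all with groups that did not overlap and an adjusted p of 0.0123 in this exact test. The ratio of Dusp1 to Dusp10, in CPM not corrected for length, was 3.0 in tumour and 38.8 in pancreas, a difference of -3.69 ± 0.08 (SE) on the log2 scale. The ratio of Cebpb to Cebpd was 5.93 in tumour and 1.07 in pancreas (2.47 ± 0.17). In the first pair the relatives moved in opposite directions, and in the second Cebpd fell far more than Cebpb. The Fos to Fosl1 log2 ratio was -1.36 in tumour and 1.07 in pancreas, a difference of -2.43 ± 0.35. The ratio of Gadd45b to Gadd45g was 2.04 in tumour and 0.923 in pancreas (1.14 ± 0.09). The other pairs that differed were Fosb to Fosl2 (-1.43 ± 0.22), Btg1 to Btg2 (0.97 ± 0.15), Ier2 to Ier3 (-0.64 ± 0.06), Klf4 to Klf9 (-0.58 ± 0.10) and Jun to Junb (0.45 ± 0.06). The remaining 5 pairs did not pass: Junb to Jund (-0.30 ± 0.11) and Jun to Jund (0.15 ± 0.06), both at an adjusted p of 0.0505 in the exact test, Zfp36 to Zfp36l1 (0.30 ± 0.15, adjusted permutation p = 0.0741), Fosl1 to Fosl2 (-0.29 ± 0.15, adjusted permutation p = 0.128) and Plk2 to Plk3 (0.01 ± 0.18, adjusted permutation p = 0.952). Without pancreas library 3, Fosl1 to Fosl2 (-0.38, adjusted exact p = 0.0463) and Zfp36 to Zfp36l1 (0.37, adjusted exact p = 0.0333) passed. Junb to Jund passed without pancreas library 3 or 4 (-0.35 and -0.37) and Jun to Jund without pancreas library 5 (0.20).

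**Figure D3:**
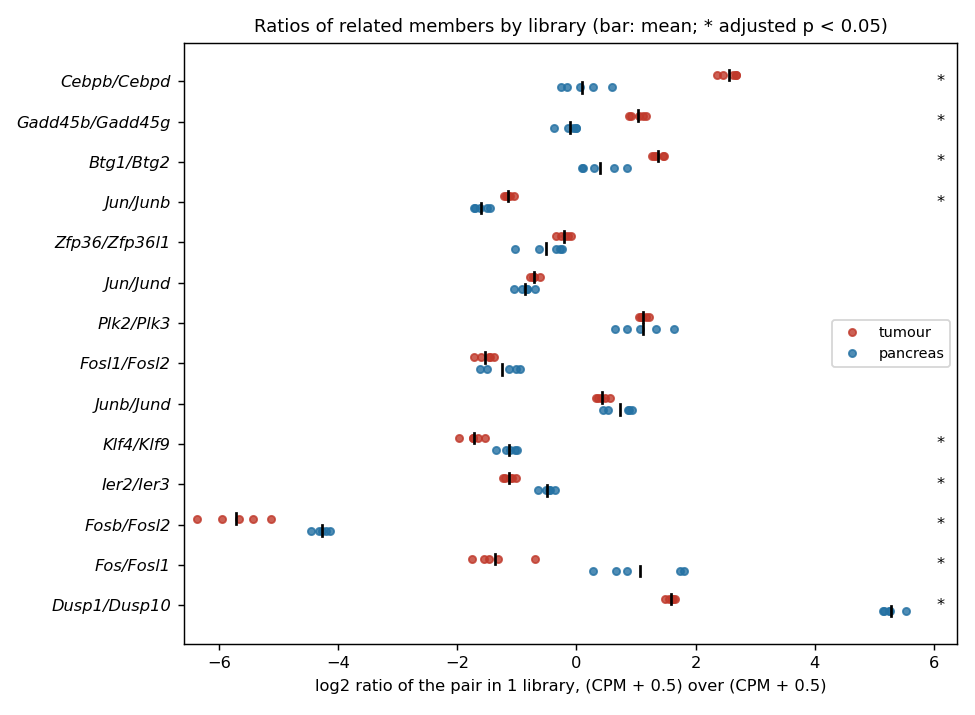
Log2 ratio of (CPM + 0.5) between 2 relatives for each of the 14 pairs, with 1 point per library, tumour above pancreas. The Dusp1 to Dusp10 pair has the widest gap between the groups (difference -3.69), and the Plk2 to Plk3 pair the narrowest (0.01).

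The members varied more among pancreas libraries than among tumour libraries. Their median coefficient of variation was 6.91% in tumour and 12.6% in pancreas, and it was larger in pancreas for 36 of 44. Over all tested genes it was 8.63% in tumour and 14.1% in pancreas, and larger in pancreas for 12374 of 17548. Much of the spread in pancreas followed libraries 3 and 4. Both lay above libraries 1, 2 and 5 for 19 members (43.2%) and below them for 13 (29.5%), where 20.9% of all tested genes had both above and 19.6% both below. Fos, Fosb, Dusp1, Zfp36, Sgk1, Btg2, Plk2 and both Gadd45 genes were among the 19. Arc, Egr3, Dusp2, Junb, Ier2, Ier3, Ier5l and Trib1 were among the 13, so early genes did not share 1 direction in these libraries. Without those 2 libraries, 34 members fell and 6 rose: Fosl1, Atf3 and Klf10 then fell, Gadd45b rose (0.22, edgeR adjusted p = 0.00437) and Plk2 no longer passed. The falls of Btg2 (-0.29) and Dusp8 (-0.47) were then smaller and that of Cebpb larger (-0.34). Pancreas libraries 3 and 4 were picked by their values in these data. The direction of each of these shifts follows from where the 2 libraries lay, so the new calls are no further result.

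**Figure D4:**
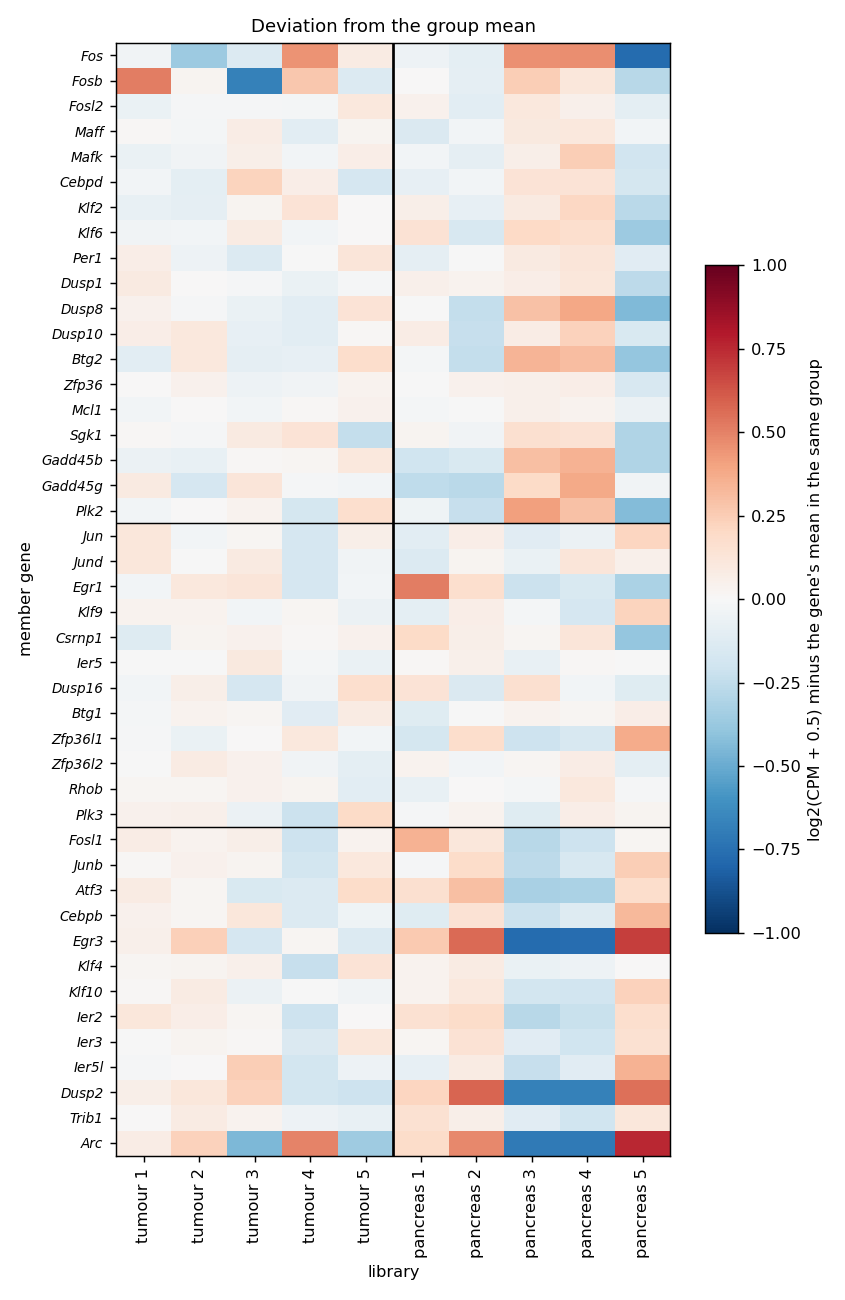
Deviation of each member (rows) from its mean over the 5 libraries of the same group (log2 scale, colour), for tumour and pancreas libraries 1 to 5 (columns). Pancreas libraries 3 and 4 share their sign for most rows, positive for Fos and Plk2 and negative for Arc and Egr3, and tumour columns are paler for most rows, with Fosb among the exceptions.

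Fold changes in this comparison went with the size and base composition of genes, and the members are small genes. Their median genomic span was 5284.5 bases, against 23483 bases over 13527 tested protein-coding genes, and their median exon GC content 54.7%, against 49.9%. Across those genes the log2 fold change had a Spearman correlation of 0.27 with span, 0.23 with exon length and -0.21 with GC content (across genes, which share libraries and are not independent, and whose span, length and GC go together). In the shortest quintile of spans (up to 8107 bases) 52.7% of protein-coding genes fell and 17.8% rose, with a median of -0.34, and in the longest quintile 22.2% fell and 52.3% rose, with a median of 0.29. The shortest quintile held 28 of the 44 members, of which 24 fell and 2 rose, with a median of -1.01. With the trend over span, exon length and GC taken out as an offset, 29 members fell (65.9%), where 35.6% of all tested genes did, and 6 rose, where 28.9% did, and the members' median was -0.51 against -0.06 over all genes. In that fit Cebpb (-0.17), Csrnp1 (-0.033), Dusp16 (-0.036) and Plk3 (-0.12) no longer passed, and Per1 (0.35, edgeR adjusted p = 6.9e-05) and Zfp36l2 (0.13, edgeR adjusted p = 0.0303) rose. Smaller falls remained called for Maff (-0.42), Mafk (-0.43), Klf4 (-0.37) and Dusp8 (-0.42), and the rise of Rhob was larger (0.26).

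**Figure D5:**
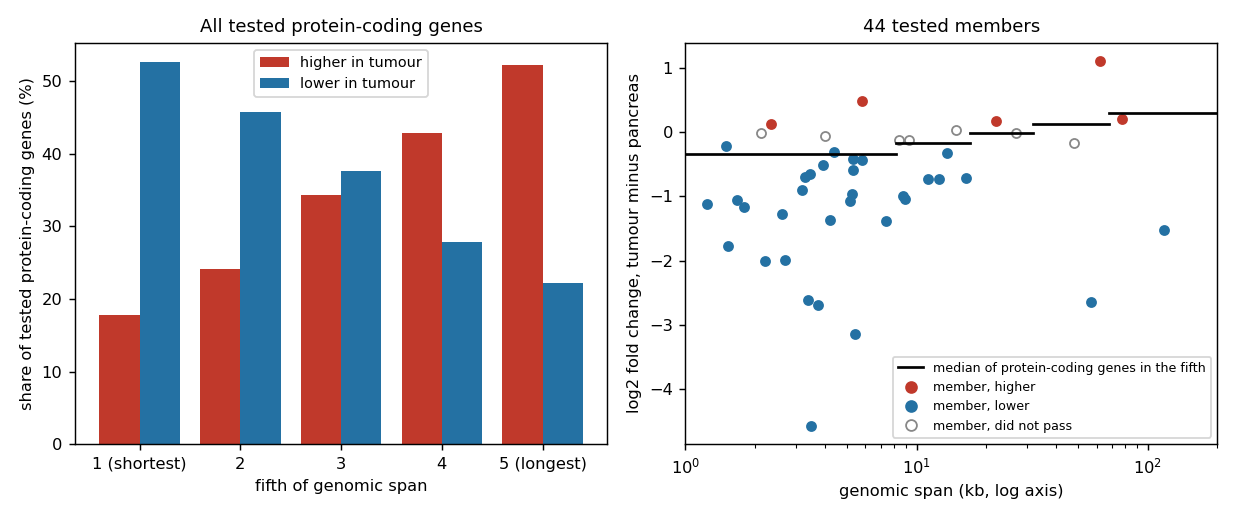
Left, share of tested protein-coding genes (%) called higher or lower in tumour, by quintile of genomic span. Right, log2 fold change of the 44 tested members (tumour minus pancreas) against span (kb, log axis), with black lines at the median of all protein-coding genes in each quintile. The share called lower goes down over the quintiles, 52.7% in the shortest and 22.2% in the longest, and most of the 28 members in the shortest quintile lie under its median line.

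Other genes of the early response were counted as separate lists. Of 39 tested rapid response genes outside the members, 20 fell (51.3%) and 10 rose (25.6%), with a median of -0.24. Of all tested genes, 33.4% fell and 32.4% rose. Ccn2, a matricellular target of serum response factor and YAP, had 88.9 ± 10.5 CPM in tumour and 1382 ± 287 CPM in pancreas (-3.96 ± 0.15, edgeR adjusted p = 1.3e-09). Myc, the growth-driving transcription factor, averaged 65.1 ± 3.75 CPM in tumour and 140 ± 23.6 CPM in pancreas (-1.10 ± 0.10, edgeR adjusted p = 7.9e-07). Areg, a ligand of the EGF receptor, rose, at 9.48 ± 1.81 CPM in tumour and 2.69 ± 0.714 CPM in pancreas (1.82 ± 0.20, edgeR adjusted p = 2.7e-06). Nr4a1, an early induced nuclear receptor, did not pass (15.6 ± 2.04 CPM in tumour, 16.7 ± 2.28 CPM in pancreas, edgeR adjusted p = 0.453). The pair at the ends of the list were low: Edn1, encoding endothelin, at 0.0587 CPM in tumour and 1.21 CPM in pancreas, and Gem, a small GTPase, at 0.398 CPM in tumour and 0.0783 CPM in pancreas, both with overlapping groups. The call of Gem ended without pancreas libraries 3 and 4.

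The kinases and transcription factors that switch these genes on moved in both directions: of 31, 13 rose (41.9%) and 9 fell (29%), where 32.4% of all tested genes rose and 33.4% fell, with a median of 0.11. With the offset for span, length and GC, 8 rose and 10 fell, where 28.9% of all tested genes rose and 35.6% fell. In that fit Srf was at -0.27, Braf at 0.57 and Rps6ka4 at -0.55. Srf, the serum response factor, averaged 55.2 ± 5.74 CPM in tumour and 81.3 ± 9.23 CPM in pancreas (-0.56 ± 0.09, edgeR adjusted p = 6.2e-05). Its ETS partners parted, with Elk3 at 72.1 ± 3.85 CPM in tumour and 112 ± 6.99 CPM in pancreas (-0.63 ± 0.05) and Elk4 at 75.4 ± 5.93 CPM in tumour and 39.0 ± 3.32 CPM in pancreas (0.95 ± 0.07). Braf, a kinase upstream of ERK, was higher in tumour (116 ± 6.09 CPM, against 54.8 ± 8.54 CPM in pancreas), and Rps6ka4, a kinase that phosphorylates CREB and histone H3, lower (62.3 ± 3.87 CPM, against 114 ± 11.5 CPM in pancreas). Among 13 feedback inhibitors and ETS targets of ERK signalling, 6 fell (46.2%) and 3 rose (23.1%), with a median of -0.18. Spry1, an inhibitor of receptor tyrosine kinase signalling, had 1.73 ± 0.312 CPM in tumour and 11.4 ± 1.00 CPM in pancreas, and Dusp6, a phosphatase of ERK, 17.7 ± 1.07 CPM in tumour and 59.7 ± 6.46 CPM in pancreas. Dusp4, an ERK phosphatase of the nucleus, rose, at 132 ± 13.1 CPM in tumour and 76.1 ± 7.54 CPM in pancreas, and Etv1, an ETS factor, had 0.631 ± 0.232 CPM in tumour and 0 counts in every pancreas library.

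Heat shock genes known to be induced by tissue dissociation were mostly lower in tumour: of 14, 12 fell (85.7%) and 1 rose (7.14%), with a median of -0.70. Over all tested genes, 33.4% fell and 32.4% rose. Hspa8, the constitutive chaperone, averaged 561 ± 48.2 CPM in tumour and 2478 ± 120 CPM in pancreas (-2.14 ± 0.06), and Hspa1a, its stress-induced relative, 3.40 ± 0.617 CPM in tumour and 16.2 ± 2.55 CPM in pancreas (-2.25 ± 0.15). Dnajb4, a co-chaperone, was the gene that rose, at 130 ± 3.91 CPM in tumour and 94.4 ± 4.71 CPM in pancreas (0.46, and 0.11 with the offset for span, length and GC). These values stand beside the difference in digestion between the groups, from which they cannot be told apart. Of 19 genes of AU-rich element binding and deadenylation, 10 rose (52.6%) and 6 fell (31.6%), with a median of 0.12. With the offset for span, length and GC, 5 rose and 8 fell, where 28.9% of all tested genes rose and 35.6% fell. Hnrnpd, which binds AU-rich elements, was lower in tumour (63.0 ± 0.891 CPM, against 132 ± 7.61 CPM in pancreas), as was Khsrp, a decay-promoting factor (159 ± 4.19 CPM, against 213 ± 12.7 CPM in pancreas), although Khsrp did not pass with that offset (-0.094, edgeR adjusted p = 0.156). The deadenylase gene Parn (100 ± 5.30 CPM in tumour, 51.7 ± 3.19 CPM in pancreas) and the decapping enzyme gene Dcp2 (154 ± 2.09 CPM in tumour, 64.3 ± 8.29 CPM in pancreas) were higher. Of 24 tested bZIP genes outside the members, 16 rose (66.7%) and 4 fell (16.7%), with a median of 0.49. Atf5, a stress-response factor, was among those that fell (135 ± 5.87 CPM in tumour, 313 ± 24.3 CPM in pancreas), beside Batf, an AP-1 partner known in lymphocytes (-1.11 ± 0.24). Bach2, a transcriptional repressor, and Hlf, a circadian bZIP factor, had the highest fold changes of the list, 2.99 ± 0.82 and 2.30 ± 0.83, at low levels: Bach2 had 0.337 CPM in tumour and 0.0433 CPM in pancreas, and Hlf 1.04 CPM in tumour and 0.204 CPM in pancreas. The call of Hlf ended without tumour library 1 or 4 or pancreas library 2.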

How the data were processed

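RNA was sequenced from 5 tumour and 5 pancreas samples. The authors deposited 1 table of estimated counts per gene: whole numbers not stated to be raw, with an excess at multiples of 4, so the unit is taken to be expected counts, and rounding changed none. HISAT, HISAT2 and HTSeq with mm10 are named in the submitters' processing notes; the sources used here give no roles, versions or strand setting.

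Counts were filtered (filterByExpr, minimum count 10, minimum total 15), TMM-scaled and tested with edgeR 4.0.16 (robust quasi-likelihood, R 4.3.3), with Benjamini-Hochberg adjustment over 17548 genes. A simulation with 200 of 17548 genes changed was used to test the script. Among those tested, 55.4% of 1.5-fold, 68.3% of 2-fold and 85.2% of 4-fold changes were recovered, and 9 of 16944 unchanged genes were called. In the data 65.8% of genes were called, so the simulation does not test the scaling in that setting. DESeq2 1.42.0, limma 3.58.1 (voom), other scalings, no filter, division by 4, a replicate block and leave-one-out fits were alternatives. Lengths and coordinates are from GENCODE (mm10), where 55141 IDs matched. The members, the pathway and marker lists and the tests were chosen with earlier results of these data known. All members are named, with the extreme called genes of each other list in either direction and a few fixed by name. Same-numbered libraries' deviations correlated at -0.0358 to 0.0577, and for 3 tumour libraries the closest pancreas library had the same number. Whether the numbers pair samples cannot be told from these values. Permutation tests enumerated all assignments in Python 3.11.15 with numpy 2.4.6.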

Additional observations from a re-analysis of the deposited data

Results flagged for a closer look

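Each library was compared with the other 4 of its group by Dixon's ratio for the 45 members and 26 other named genes, 142 groups in all, and 8 values stood apart from the rest of their group; chance alone gives about 1 in 20. In tumour library 4, Fosl1 was at 42.1 CPM (49.7 to 51.35 in the other 4), Areg at 6.315 CPM (9.808 to 10.83) and Atf5 at 124.2 CPM (135.6 to 138.3). Csrnp1 was at 40.92 CPM in tumour library 1 (45.02 to 46.12 in the others), and Rhob at 434.1 CPM in tumour library 5 (473.6 to 483.3). Egr4 was at 0.2074 CPM in tumour library 2 and at 0 in the other 4 tumour libraries. Dusp1 was at 303.9 CPM in pancreas library 5 (373.4 to 393.7 in the others), which is still above every tumour library. Gem was at 0.2405 CPM in pancreas library 1 (0 to 0.05514 in the others).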

How the results depend on the processing

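Of the 44 tested members, 31 were lower and 5 higher with RLE size factors or limma-voom or after division by 4, 32 and 5 with DESeq2, 30 and 5 with library size alone (which moved the median of all genes to 0.10), and 30 and 4 without a filter. Cebpb lost its call in 5 of these 6 fits and Rhob and Plk2 in some. Leave-one-out fits gave 30 to 33 members lower and 3 to 5 higher, with 3 higher without tumour replicate 2. Whether libraries sharing a number pair is not known. With a replicate block 31 members were lower and 4 higher, Cebpb and Dusp16 losing their call. The offsets for span, length and GC were chosen after seeing the data. With them, 8 upstream genes and 5 AU-rich and deadenylation genes were higher (13 and 10 without them). Dusp16 was then at -0.036 (edgeR adjusted p = 0.659) and Zfp36l2 at 0.13 (edgeR adjusted p = 0.0303). The cause was not tested. Pancreas libraries 3 and 4, left out together in another fit, were also picked by their values in these data. Without them, Gadd45b turned to 0.22.

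Under sign flips within the replicate block, where no p can fall below 0.0625, none of the 9 ratio differences passed (adjusted exact p = 0.0795), at unchanged values of -2.43 (Fos/Fosl1), -1.43 (Fosb/Fosl2), 0.45 (Jun/Junb), 2.47 (Cebpb/Cebpd), -0.58 (Klf4/Klf9), -0.64 (Ier2/Ier3), -3.69 (Dusp1/Dusp10), 0.97 (Btg1/Btg2) and 1.14 (Gadd45b/Gadd45g). Without pancreas libraries 3 and 4, 4 further ratios passed: Fosl1/Fosl2 -0.50, Junb/Jund -0.46, Zfp36/Zfp36l1 0.46 and Plk2/Plk3 0.27. Those libraries were picked by their values in these data, so these passes only describe the pattern among pancreas libraries. Leave-one-out values were -0.38 to -0.21 for Fosl1/Fosl2, -0.37 to -0.25 for Junb/Jund, 0.17 to 0.37 for Zfp36/Zfp36l1 and 0.11 to 0.20 for Jun/Jund, passing without pancreas library 3, without 3 or 4, without 3 and without 5 in that order.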
